A study of Mus musculus with 4 samples.

Results

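The collagen genes were described here in liver RNA of C57BL/6 mice treated with aristolochic acid I (AAI), a plant nephrotoxin, or with its vehicle, corn oil. A gene was taken as a collagen gene when the name of its array probe had the form Col, a type number, the letter a and a chain number. This rule found 44 genes among the 37074 gene names on the array, with 91 probes on 109 spots. They comprised 11 fibrillar collagens, 6 basement membrane collagens and 27 collagens of other types.

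The arrays belong to a study of glycine N-methyltransferase, a liver enzyme, in kidney injury by AAI, and set AAI against corn oil in the liver of each sex. Wild-type mice were 6 weeks old at the start and received injections into the peritoneum 5 days a week for 3 weeks. Females were given 5 mg/kg/day AAI and males 2 mg/kg/day, so sex and dose changed together, and the control mice of each sex received corn oil. For each group, liver RNA of 5 mice was mixed in equal parts and hybridized to a single-color array, which left 1 array per group, 4 in all. Below, control stands for corn oil and AAI for AAI treatment. A pool averages its mice, so no spread between mice was measured, comparisons of 1 array with 1 allowed no test, and array and group cannot be told apart. In whole tissue, a change in the number of collagen-producing cells and a change in the RNA of each such cell cannot be told apart either.

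Collagens are the main proteins of the extracellular matrix, each built from 3 chains wound into a triple helix in which glycine returns at a fixed short interval. Fibrillar collagens (types I, II, III, V, XI, XXIV and XXVII) assemble into fibrils, type IV collagens form the sheet of basement membranes, and the other types coat fibrils, make beaded filaments or short-chain networks, anchor epithelia or span the cell membrane. In the healthy liver, interstitial collagen lies mainly in the portal tracts and the capsule, while type IV collagen and endostatin-bearing collagens line vessels, ducts and sinusoids. In hepatic scarring, stellate cells and portal fibroblasts are known as the main sources of collagens I and III.

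The repeat of glycine was visible in the sequences of the probes themselves. Of the 91 collagen probes, each 60 bases long, 4 read a glycine codon (GGN) after every 2 other codons in 1 frame, as did 9 of all 56605 probes (0.0159%). These 4 probes are shown because their bases lie inside the helix-coding part of the message, with the glycine codons in capitals.
Col5a3: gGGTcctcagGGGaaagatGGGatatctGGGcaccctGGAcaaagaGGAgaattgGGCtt
Col6a3: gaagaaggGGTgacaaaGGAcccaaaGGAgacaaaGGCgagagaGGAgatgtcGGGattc
Col11a2: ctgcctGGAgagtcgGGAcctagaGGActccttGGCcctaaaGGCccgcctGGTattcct
Col15a1: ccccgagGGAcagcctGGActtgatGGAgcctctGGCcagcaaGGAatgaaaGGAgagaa
On mm9, the build on which the array is annotated, the Col5a3 probe aligned to chr9:20590066-20590795, the Col6a3 probe to chr1:92689602-92690594 and the Col11a2 probe to chr17:34189287-34189453. Each of these 3 alignments is longer than the probe, as when a probe crosses an exon junction. The Col15a1 probe aligned to chr4:47283786-47283845 without a gap. The files annotate probes by transcript accession, and the place of the other probes within exons or untranslated regions was not analysed here.

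Signals are given as log2 of the processed spot intensity after quantile normalization over the 4 arrays, and a difference of such values is a log2 ratio. When a gene had several probes, the brightest one stood for it. Levels of different genes come from different probes and were not set against each other. A gene was counted as changed at a log2 ratio of at least 1 in size, that is 2-fold, if its probe was well above background on either array compared. If the other array was dim, a bound replaced the ratio. The only error available was technical: across all genes with several probes above background, the SD of the log2 ratios of a gene had a median of 0.25 (females), 0.24 (males) and 0.23 (control pools). For the collagen genes with several such probes, this median was 0.36 over 20 genes in females and 0.28 over 17 genes in males.

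Of the 44 genes, 38 were above background on all 4 arrays. Col4a3, a chain of the glomerular type IV network, was above background on 3 arrays and Col9a3, a cartilage collagen, on 2. Col4a4, Col6a6 and Col10a1 were not well above background on any array. The single Col4a2 spot was marked as an outlier by the scanner software on the array of control females, so Col4a2 entered none of the counts and its remaining values are given separately below. The liver label was borne out by all 10 hepatocyte markers, albumin included, which were above background on every array, and their median log2 ratio was 0.06 (females) and -0.01 (males).

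In females, 0 of the 40 collagen genes that could be counted were at least 2-fold higher after AAI, where 1.34% of all genes were, and 0 were at least 2-fold lower, where 3.07% of all genes were (4.41% in either direction). The 39 genes above background on both arrays had a median log2 ratio of 0.19 and lay between -0.65 for Col6a4 and 0.58 for Col1a1, beside a median of 0.04 over all genes. By class, the median was 0.06 for the fibrillar, 0.26 for the basement membrane and 0.27 for the other collagens. With all probes of a gene averaged, the median over the collagens was 0.09.

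In males, 2 of 40 collagen genes were at least 2-fold higher after AAI, Col1a1 and Col8a1, where 3.47% of all genes were, and 1, Col5a3, was at least 2-fold lower, where 4.56% of all genes were (8.03% in either direction). The share of collagen genes past 2-fold was thus 5.0% upward and 2.5% downward, near the share of all genes in either direction. The median over the 38 genes above background on both arrays was 0.28, beside 0.02 over all genes. It was 0.34 for the fibrillar, 0.17 for the basement membrane and 0.23 for the other collagens. Positive log2 ratios were measured in 31 of these 38 genes (81.6%, against 51.6% of all genes), and in 10 of the 11 fibrillar collagens. Among these 10, Col11a1 and Col11a2 were at 0.00 after rounding. In females, the ratio was positive in 25 of 39 genes (64.1%, against 53.5% of all genes) and in 6 of the 11 fibrillar collagens. When all probes of a gene were averaged, dim ones included, the fibrillar median in males was 0.02 and that of all collagens 0.16.

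**Figure D1:**
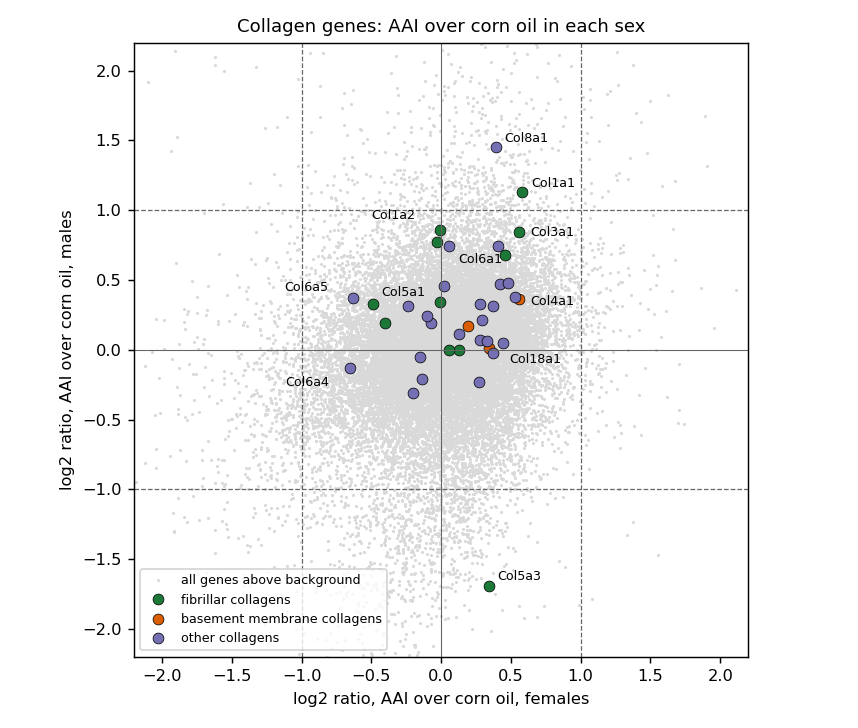
Log2 ratio of AAI over control mice in females (x axis) and in males (y axis), 1 point per gene. Colored points are the 38 collagen genes above background on all 4 arrays, by class, gray points are all genes above background on all 4 arrays, and dashed lines mark 2-fold; axes stop at 2.2 in size. Only Col8a1, Col1a1 and Col5a3 lie beyond a dashed line, each in males.

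Type I collagen, the main fibril protein of connective tissue, is made of chains encoded by Col1a1 and Col1a2. The brightest Col1a1 probe, of transcript NM_007742 at chr11:94813075-94813134 (mm9), had log2 signals of 7.50 in control and 8.08 in AAI females, and of 7.37 in control and 8.50 in AAI males. The log2 ratio was 0.58 in females and 1.13, or 2.19-fold, in males. Both AAI pools were above both control pools, which differed by 0.13. With normexp, a background correction that models added noise, the male ratio was 0.84, and with all probes averaged 0.74, both under 2-fold.

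This probe was printed 10 times on each array, which gave an error for the spotting and scanning of a pool. The SD over the 10 spots was 0.11 in control females, 0.10 in AAI females, 0.23 in control males and 0.08 in AAI males. In males, the spots spanned 7.06 to 7.61 with corn oil and 8.40 to 8.65 with AAI, so the sets of spots did not overlap. The spots of control males fell into a lower and an upper set. In females, 7.28 to 7.63 with corn oil and 7.94 to 8.23 with AAI did not overlap either. A second NM_007742 probe, which overlaps the first at chr11:94813115-94813174, was also printed 10 times. Its means were 6.75 ± 0.15 and 7.50 ± 0.10 in corn oil- and AAI females, and 6.39 ± 0.12 and 8.04 ± 0.10 in corn oil- and AAI males (SD, n = 10 spots of 1 array). Its log2 ratio was 0.76 (females) and 1.65 (males). These spots share 1 pool of RNA, so their SD holds no difference between mice.

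**Figure D2:**
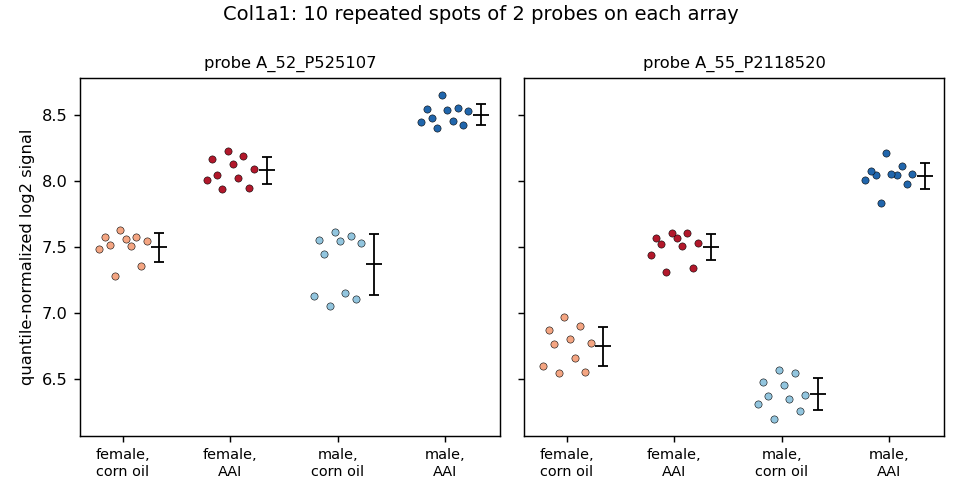
Quantile-normalized log2 signal (y axis) of the 10 repeated spots of 2 Col1a1 probes on each of the 4 arrays (x axis). Points are single spots in arbitrary horizontal order and black bars are their mean and SD; on both probes, all spots of AAI males lie above all spots of control males, and the same holds in females.

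Col1a2 was less alike between the sexes. Its brightest probe, of NM_007743 at chr6:4490619-4490678, had log2 signals of 10.32 in control and 10.31 in AAI females, and of 10.28 in control and 11.14 in AAI males. The pool of AAI males stood above the other pools, which lay close together. The male log2 ratio was 0.86 and the female one -0.01. Col3a1 encodes type III collagen, the fibril protein of reticular fibers. It had signals of 9.50 in control and 10.06 in AAI females and of 9.76 in control and 10.59 in AAI males. Its log2 ratio was 0.56 (females) and 0.84 (males), and both AAI pools were above both control pools.

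The type V chains nucleate fibrils of types I and III, and they did not move as a set. Col5a1 had log2 signals of 8.19 in control and 7.69 in AAI females and of 7.72 in control and 8.05 in AAI males, so that it was lower in females by a log2 ratio of -0.49 and higher in males by 0.33. Col5a2, read by a probe of an Ensembl transcript, had 5.25 and 5.71 in the female pools and 4.64 and 5.33 in the male pools, in the same order of treatment, a log2 ratio of 0.46 and 0.68. Its values lay close to background: with normexp the ratios became 0.11 and 0.12. The RefSeq mRNA probe of Col5a2, above background on the 2 female arrays only, had 0.80 in females and -0.20 in males. With both probes averaged, the male ratio was 0.24.

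Col5a3, the remaining type V chain, had the largest log2 ratio in size of the collagens counted, -1.69 in males, or 3.22-fold lower. Its brightest probe, of NM_016919 at chr9:20574592-20574651, had signals of 8.44 in control and 8.78 in AAI females, and of 9.22 in control and 7.53 in AAI males. The pool of control males was the highest of the 4 and that of AAI males the lowest, while the log2 ratio in females was 0.34. The second Col5a3 probe, annotated to the same accession and printed above with its glycine codons, did not show this: its signals were 5.03 in control and 4.66 in AAI females and 5.31 in control and 5.24 in AAI males, a log2 ratio of -0.37 and -0.06. With both probes averaged the male ratio was -0.88, and Col5a3 was then under 2-fold.

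**Figure D3:**
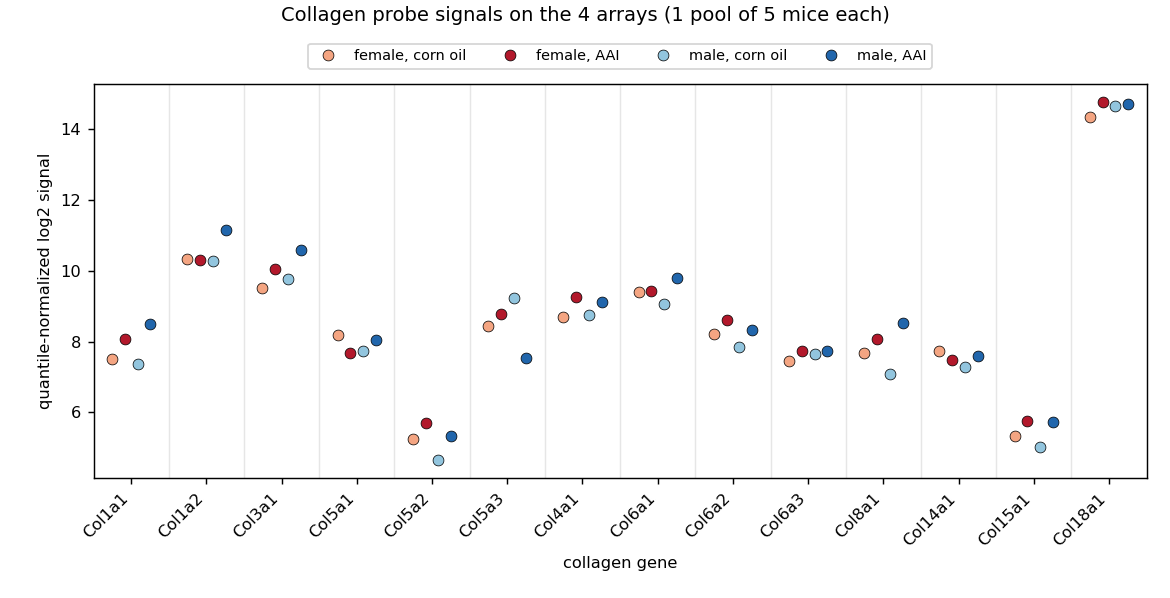
Quantile-normalized log2 signal (y axis) of the brightest probe of 14 collagen genes (x axis) on the 4 arrays, 1 point per array. Heights may be compared within a gene only; AAI males are the highest point for Col1a1, Col1a2, Col3a1, Col6a1 and Col8a1 and the lowest for Col5a3.

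Of the remaining fibrillar collagens, Col2a1, the main collagen of cartilage, had log2 signals of 6.34 in control and 6.30 in AAI females and of 6.26 in control and 7.03 in AAI males, a log2 ratio of -0.03 and 0.77. Col11a1 and Col11a2, whose chains join type II fibrils, had ratios of 0.13 and 0.06 in females and of 0.00 in males. Col24a1 and Col27a1 had -0.01 and -0.40 (females) and 0.34 and 0.19 (males). Col27a1 was read there by a probe of an Ensembl transcript. Its RefSeq mRNA probe, above background on all 4 arrays, had the opposite sign in both sexes, 0.20 in females and -0.28 in males. Of 8 cartilage and bone markers, Matn1 and Matn3 were not well above background on any array, and Acan, Comp, Sox9, Bglap, Ibsp and Sp7 were above it on all. Ibsp, bone sialoprotein, had a male log2 ratio of 1.01, and the median of the list was 0.20 (females) and -0.08 (males). The summed signal of the list was 2788 in control and 2678 in AAI females and 2990 in control and 2512 in AAI males. Sp7, with log2 signals of 10.97, 10.64, 11.05 and 10.74 in that order, makes up most of each of these sums. The part of these cells in the Col2a1 values was not tested.

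Among the basement membrane collagens, Col4a1 pairs with Col4a2 in the network of nearly all basement membranes. Col4a1 had log2 signals of 8.69 in control and 9.25 in AAI females and of 8.76 in control and 9.11 in AAI males, a log2 ratio of 0.56 and 0.36. Both AAI pools were above both control pools, and both ratios exceeded the median SD between probes over all genes. Col4a2, read through the normalization curve of each array because its spot was left out on the array of control females, had 8.79 in AAI females and 8.40 in control and 8.91 in AAI males. The male log2 ratio was 0.50, or 1.41-fold, and no ratio was available in females. The minor chains Col4a5 and Col4a6 had 0.19 and 0.34 (females) and 0.17 and 0.01 (males). Col4a3 had 5.14 and 5.07 in the female pools and 5.67 with corn oil in males, where it was not well above background after AAI. In males it was at least 1.96-fold lower, a bound just under the threshold, and its measured signal there was 4.54.

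Type VI collagen makes beaded filaments that sit between basement membrane and fibrils. Col6a1 had log2 signals of 9.39 in control and 9.44 in AAI females and of 9.06 in control and 9.80 in AAI males, a log2 ratio of 0.06 and 0.74. Col6a2 had 8.20 and 8.62 (females) and 7.85 and 8.32 (males), a ratio of 0.42 and 0.47. Col6a3, the longest of the classic chains, had 7.46 and 7.74 (females) and 7.66 and 7.73 (males), a ratio of 0.28 and 0.07. On their brightest probes, the 3 classic chains, which join in 1 molecule, were above 0 in both sexes. A different chain stood out in each sex. Other probes above background on all 4 arrays did not all do the same. Those of Col6a2 had -0.18 and 0.09 in females and -0.07 and -1.03 in males. Those of Col6a3 had 0.30 and -0.28 in females and 0.58 and 0.28 in males. With probes averaged, Col6a2 had -0.21 in males. The later-found chains Col6a4 and Col6a5 had the lowest log2 ratios of the collagens in females, -0.65 and -0.63, with -0.13 and 0.37 in males. The direction in females turned with the probe: a second Col6a4 probe, above background on all 4 arrays, had 0.62 in females and -0.51 in males, and a second Col6a5 probe, above background on 3, had 0.47 and 0.51.

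Col8a1 encodes a short-chain collagen of vessel walls and of the basement membrane of the cornea. It showed the highest collagen log2 ratio in males, 1.45 or 2.74-fold, from its only probe, of NM_007739 at chr16:57627033-57627092. Its log2 signals were 7.69 in control and 8.08 in AAI females and 7.08 in control and 8.53 in AAI males. Both AAI pools were above both control pools, with a female ratio of 0.39. The control pools themselves differed by 0.62, and the male ratio lay between 1.08 and 1.52 over the processing settings tried. Its relative Col8a2 had -0.20 in females and -0.31 in males.

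Type XV and type XVIII collagens carry endostatin-like ends and sit at basement membranes, and hepatocytes are a known source of type XVIII. Col15a1 had log2 signals of 5.34 in control and 5.76 in AAI females and of 5.01 in control and 5.74 in AAI males. The log2 ratios of 0.41 and 0.74 became 0.11 and 0.25 with normexp. Col18a1 had 14.34 and 14.78 (females) and 14.67 and 14.72 (males), a ratio of 0.44 and 0.05, and the pool of control females stood below the others. With 75th percentile scaling, the control pools differed by -0.05 in place of -0.33.

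Among the fibril-associated collagens, which decorate the surface of fibrils, Col14a1 had log2 signals of 7.72 in control and 7.48 in AAI females and of 7.28 in control and 7.59 in AAI males, a log2 ratio of -0.24 and 0.31. Over the 8 genes of this kind above background on both arrays (with Col9a1, Col9a2, Col12a1, Col16a1, Col19a1, Col20a1 and Col22a1), the ratios lay between -0.24 and 0.37 in females and between -0.05 for Col20a1 and 0.46 for Col16a1 in males. Col9a3 was above background in AAI-treated but not in control females, where it was at least 1.79-fold higher after AAI. The 4 transmembrane collagens (Col13a1, Col17a1, Col23a1 and Col25a1) had ratios of 0.27 to 0.53 in females and of -0.23 to 0.48 in males. Col13a1 was read there by a probe of an Ensembl transcript, with 0.27 and -0.23. Its RefSeq mRNA probes, both above background on all 4 arrays, had the opposite sign in both sexes, -0.59 and -0.72 in females and 0.24 and 0.36 in males. Col17a1, a collagen of hemidesmosomes, had 0.48 in both sexes, and its 2 probes differed by little, with 0.45 and 0.44 on the second. Col7a1, the anchoring fibril collagen, had -0.07 and 0.19, and the less known Col26a1 and Col28a1 lay between -0.21 and 0.33.

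Probes of the same collagen gene did not always move alike, which bears on what each value above measures. In all, 60 collagen probes were above background on all 4 arrays, and 17 genes had at least 2 of them. The probes of a gene had log2 ratios of opposite sign for 13 of the 17 genes in females and for 7 in males. A difference in sign was counted at any size, also below the median SD between probes. No share over all genes stands beside these counts, so whether they are particular to collagens was not tested. Of the 60 probes, 47 were annotated to a RefSeq mRNA and 13 to another transcript, mostly Ensembl models. In males, the RefSeq mRNA probes had a median log2 ratio of 0.28 with 36 above and 9 below 0, and the other 13 had a median of -0.07 with 6 above and 7 below. In females, the medians were 0.13 and 0.09.

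Probes of opposite sign stood out in males for both type I genes and for type III. The kind of transcript did not divide the signs throughout. A further Ensembl probe of Col1a1 had a male log2 ratio of 1.0, and the Ensembl probe of Col6a3 had 0.58. At Col1a1, a probe of Ensembl transcript ENSMUST00000148593, at chr11:94800628-94800687 (mm9), had log2 signals of 7.12 in control and 7.07 in AAI females and of 7.76 in control and 6.94 in AAI males, a male log2 ratio of -0.83 while the other 3 probes had 1.0 to 1.65. At Col1a2, a probe of ENSMUST00000155687, at chr6:4484938-4484997, had 6.00 and 6.18 (females) and 6.97 and 5.89 (males), a male ratio of -1.08 against 0.86 on the brightest probe. At Col3a1, a probe of ENSMUST00000189818, at chr1:45373784-45373843, had ratios of -0.90 in females and -0.50 in males against 0.56 and 0.84. Col6a2 gave the same picture in males, with -1.03 on a probe of the predicted transcript XM_006513177 and 0.47 on the brightest probe. All these probes were above background on every array. Whether they read the spliced message was not tested.

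**Figure D4:**
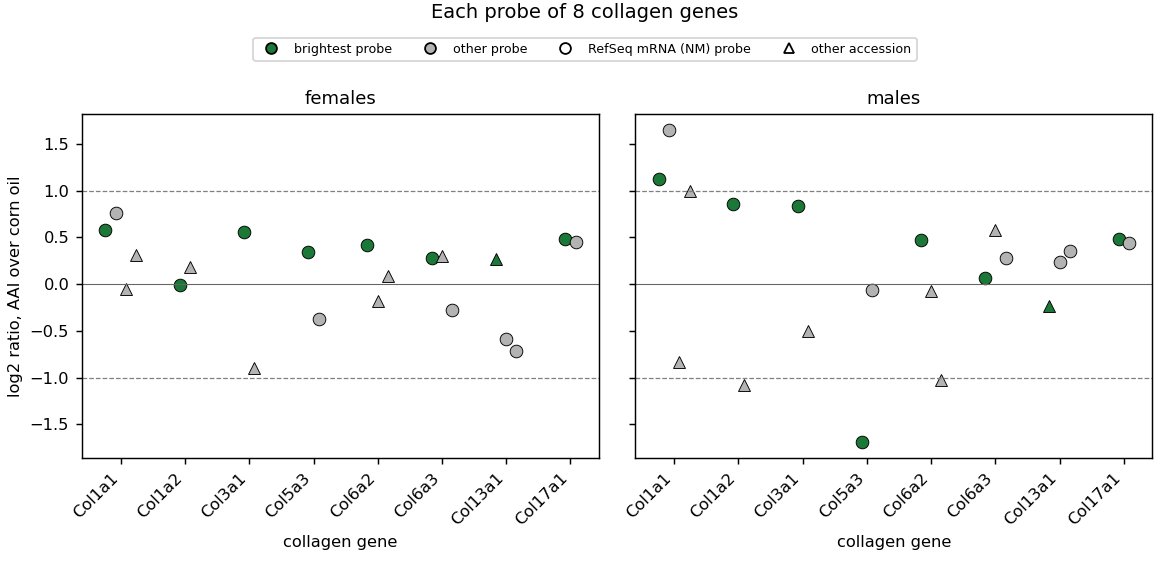
Log2 ratio of AAI over control mice (y axis) for each probe above background on all 4 arrays of 8 collagen genes (x axis), females at left and males at right. Green marks the brightest probe, gray the others, circles probes of RefSeq mRNAs and triangles probes of other transcripts, and dashed lines mark 2-fold; Col1a1, Col1a2, Col3a1 and Col6a2 each have in males a triangle below 0 beside a green circle above 0.

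Under corn oil, 0 of 40 collagen genes were at least 2-fold higher in females than in males, where 1.84% of all genes were, and 0 were at least 2-fold lower, where 3.81% of all genes were (5.65% in either direction). The median log2 ratio of females over males was 0.15, beside 0.02 over all genes, and by class it was 0.13 for the fibrillar, -0.11 for the basement membrane and 0.19 for the other collagens. The extremes were -0.78 for Col5a3, 0.62 for Col27a1 and 0.62 for Col8a1. For Col27a1 this depended on the probe, and its RefSeq mRNA probe had -0.08. Col5a3 and Col8a1, both past 2-fold in males, were thus among the genes whose control pools lay farthest apart.

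Promoters are shown for the collagens that stood out in males and had an entry: Col1a2 and Col3a1, whose male log2 ratios were alike, Col8a1, which was the highest, and Col5a3, which was the lowest. RefSeq windows on GRCm38.p6 were found for 35 of the 44 genes, as 38 windows. The windows of Col1a1, Col2a1, Col4a3, Col5a2, Col9a3, Col12a1, Col14a1, Col22a1 and Col26a1 were not used here. Each stretch holds the 250 bases before the annotated start, in the direction of transcription, with 3 motifs in capitals on either strand: TATAAA, the CCAAT box and GGGCGG, none of which overlaps another here.
Col1a2, chr6:4505368-4505617, + strand: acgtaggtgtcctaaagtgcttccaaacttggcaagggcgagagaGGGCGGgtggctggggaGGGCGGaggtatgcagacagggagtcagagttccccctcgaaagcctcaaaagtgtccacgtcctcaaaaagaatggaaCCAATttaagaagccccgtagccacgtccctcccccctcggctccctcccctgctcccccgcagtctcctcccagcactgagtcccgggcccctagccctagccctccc
Col3a1, chr1:45311288-45311537, + strand: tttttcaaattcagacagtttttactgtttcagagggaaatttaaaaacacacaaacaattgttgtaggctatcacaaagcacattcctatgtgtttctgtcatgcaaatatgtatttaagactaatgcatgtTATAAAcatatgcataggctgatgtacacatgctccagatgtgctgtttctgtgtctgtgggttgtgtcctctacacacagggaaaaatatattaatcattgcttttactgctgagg
Col8a1, chr16:57754738-57754987, - strand: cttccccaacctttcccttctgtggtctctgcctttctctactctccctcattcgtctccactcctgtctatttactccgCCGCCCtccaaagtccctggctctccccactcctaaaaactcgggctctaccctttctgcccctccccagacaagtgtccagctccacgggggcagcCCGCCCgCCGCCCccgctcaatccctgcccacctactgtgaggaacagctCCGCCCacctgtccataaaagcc
Col5a3, chr9:20815068-20815317, - strand: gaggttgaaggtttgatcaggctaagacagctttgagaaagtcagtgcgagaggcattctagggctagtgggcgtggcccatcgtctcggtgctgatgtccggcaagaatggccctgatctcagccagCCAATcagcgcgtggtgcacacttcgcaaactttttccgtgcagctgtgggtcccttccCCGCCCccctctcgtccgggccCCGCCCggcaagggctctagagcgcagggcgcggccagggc
The Col1a2 stretch held 2 GGGCGG motifs and a CCAAT motif that begins 109 bases before the start, and the Col5a3 stretch likewise held 2 GGGCGG motifs and 1 CCAAT motif, although the male log2 ratios of these genes were of opposite sign. Col3a1 held only TATAAA, and Col8a1 only GGGCGG, 4 times. GGGCGG was found in 22 of the 38 collagen windows (57.9%) and in 32.7% of all 32851 windows of that length, CCAAT in 34.2% and 33.8%, and TATAAA in 13.2% and 12.4%. The collagen windows had a median GC content of 59.0%, against 52.4% for all windows, and ranged from 35.2% at Col3a1 to 76.4%. These are matches of letters only.

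Collagen genes also lie side by side in the genome, with 8 pairs that have no other protein-coding gene starting between them in the RefSeq order. On their brightest probes, Col3a1 and Col5a2, on chromosome 1, had log2 ratios of 0.56 and 0.46 in females and of 0.84 and 0.68 in males. The other Col5a2 probe, not well above background in either male pool, had -0.20 in males. Col9a1 and Col19a1, also on chromosome 1, had 0.37 and 0.29 (females) and 0.31 and 0.21 (males). Col6a2 and Col6a1, on chromosome 10, had 0.42 and 0.06 (females) and 0.47 and 0.74 (males). Col6a5 and Col6a4, on chromosome 9, were alike in females, as given above, but not in males. Col4a6 and Col4a5, on chromosome X, had 0.34 and 0.19 (females) and 0.01 and 0.17 (males). The pairs Col4a1 with Col4a2, Col4a4 with Col4a3 and Col6a6 with Col6a5 each hold a gene without a ratio in females.

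Procollagen chains are hydroxylated, folded and escorted inside the cell. Of 18 genes for these steps, 17 were above background, with 0 past 2-fold in females and 0 in males, and their median log2 ratio was -0.16 (females) and 0.22 (males). P4hb, the shared subunit of prolyl 4-hydroxylase, had the largest ratio in females, 0.96, its partner P4ha2 had -0.78, and Serpinh1, the collagen chaperone, had -0.76 in females and 0.52 in males. In males Plod2, a lysyl hydroxylase, had the largest ratio, 0.74. Propeptides are then removed outside the cell. Of 8 genes for this step, Pcolce, the enhancer of procollagen C-proteinase, was 2.70-fold higher in males (log2 ratio 1.43, against 0.04 in females). In females, Adamts3, an N-proteinase, was higher by 1.26, and Pcolce2, the second enhancer, was lower with a ratio of -1.55. The median of these genes was 0.04 in females and 0.45 in males.

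Lysyl oxidases cross-link the fibrils, and 1 of 5, Loxl1, was past 2-fold in males, with a log2 ratio of 1.23 against -0.03 in females; the median was -0.03 in females and 0.29 in males. Of 15 collagenases and inhibitors, Timp4, an inhibitor of metalloproteinases, was higher in males by 2.55 (0.63 in females), and Ctsk, the collagen-degrading cathepsin K, by 1.04 (0.48 in females). Mmp16, a membrane-bound metalloproteinase, was at least 2.42-fold higher in males and Mmp3, stromelysin, at least 2.25-fold higher in females, each dim in the control pool. The list's median was 0.05 in females and 0.32 in males.

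Of 11 partners of the fibril, dermatopontin (Dpt), which binds decorin, was 4.08-fold higher in males and 2.50-fold lower in females after AAI, with log2 signals of 5.61 in control and 4.29 in AAI females and of 4.74 in control and 6.77 in AAI males. The list's median was -0.09 in females and 0.54 in males, and 10 of the 11 log2 ratios were above 0 in males against 5 in females. Among 9 receptors for collagen, Lair1, an inhibitory receptor of leukocytes, was lower in females by a ratio of -1.35, and Ddr1, a collagen-binding receptor kinase, was 2.00-fold higher in males, with -0.90 in females; the medians were -0.30 and 0.02. Of 14 laminins and other partners of type IV collagen, Lama3, a laminin chain of epithelia, was lower in males by a ratio of -1.56, and the medians were -0.04 and 0.19. Of 14 genes of TGF-beta signaling and related ligands, Tgfb3 and Smad7 were past 2-fold in males, with 1.44 and 1.04, against -0.11 and -0.95 in females. Tgfb1 had -0.99 in females and 0.17 in males. The medians were -0.16 and 0.13.

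Genes of other tissues moved on the same arrays. Of 13 skeletal muscle markers, 12 were past 2-fold after AAI in each sex, the median log2 ratio being 5.35 (females) and 6.15 (males). Their summed signal was 2097 in control and 62611 in AAI females and 7965 in control and 494393 in AAI males, and Myh1 was not well above background in control females. Fat markers had a median of 0.17 in females and 3.06 in males, where 8 of 11 were past 2-fold upward, against 3 (Adipoq, Cfd and Retn) in females, and a summed signal of 31838, 35101, 62523 and 109787 in control females, AAI females, control males and AAI males. Car3, with log2 signals of 14.68, 14.79, 15.69 and 13.78 in that order, makes up most of the first 3 of these sums and was lower in AAI males while the 8 markers were higher. In the same order of pools, adrenal cortex markers summed to 3974, 5069, 5995 and 60762, with a median of 0.16 in females and 3.69 in males and 7 of 9 past 2-fold upward in males. Mc2r, of the same list, went the other way, with a log2 ratio of -2.08 in males and -0.89 in females. Adrenal medulla markers summed to 2837, 2815, 3774 and 19981, with a median of 0.11 in females and 2.90 in males. Ucp1 of brown fat was not well above background in either female pool, nor was Cyp11b2 of the adrenal cortex.

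Connective tissue accompanies muscle, fat and adrenal gland, so these values stand beside those of the collagens. The pool with the highest signal of the marker lists of muscle, fat, adrenal cortex and medulla was AAI males. Among the 14 collagens plotted above by their signal on the 4 arrays, Col1a1, Col1a2, Col3a1, Col6a1 and Col8a1 were also highest in that pool. Col8a1 was included because it was past 2-fold in males, so its place here follows in part from that choice. Col4a2, a liver matrix collagen not plotted for want of a value in control females, had 8.91 in AAI males. It had 8.79 in AAI females and 8.40 in control males. The rest of the 14 plotted were highest in other pools. Col4a1, Col5a2, Col6a2, Col6a3, Col15a1 and Col18a1 were highest in AAI females, Col6a3 and Col15a1 by little. Col5a1 and Col14a1 were highest in control females. Col5a3 was highest in control males and lowest in AAI males. The part of these tissues in the collagen values was not tested. In AAI females the muscle markers were likewise past 2-fold, and there Col1a1, Col3a1 and Col8a1 had log2 ratios of 0.58, 0.56 and 0.39 and Col1a2 and Col6a1 of -0.01 and 0.06. Between the control pools, 11 of 13 muscle markers were at least 2-fold lower in females than in males, while Col1a1, Col1a2 and Col3a1 had ratios of 0.13, 0.03 and -0.26.

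**Figure D5:**
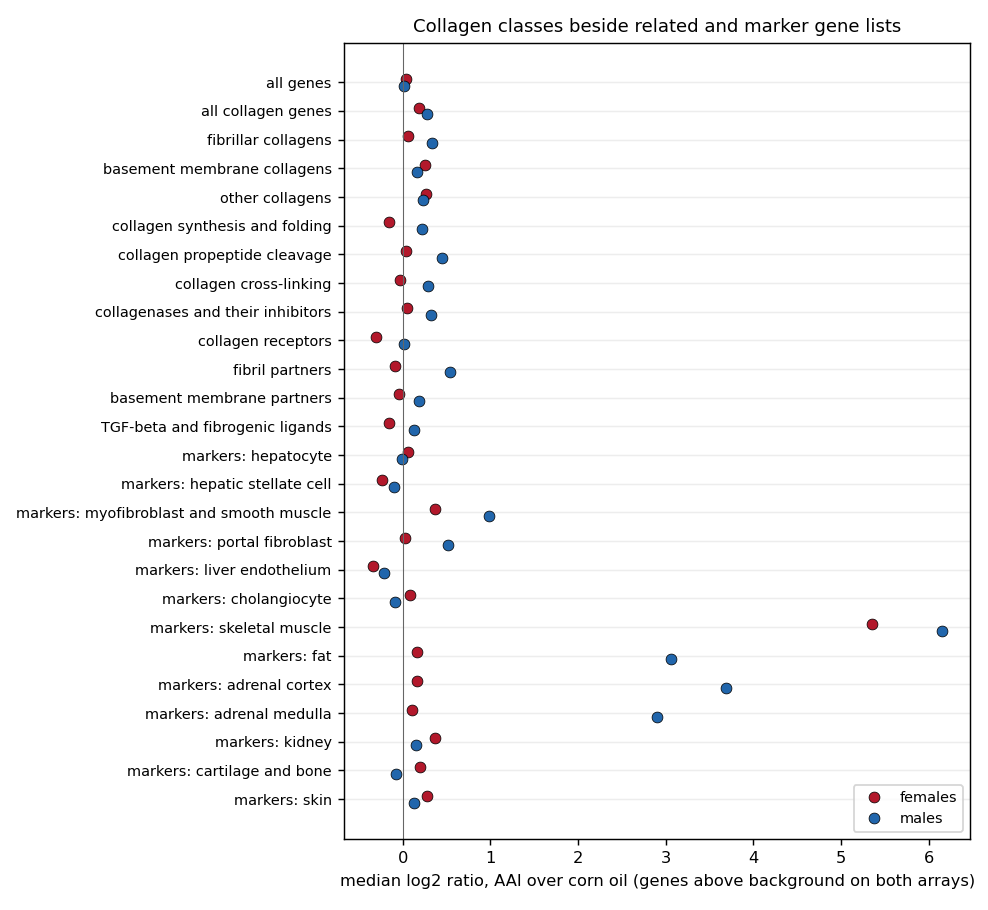
Median log2 ratio of AAI over control mice (x axis) for all genes, the collagen classes, 8 lists of collagen partners and 13 lists of cell and tissue markers (y axis), over the genes above background on both arrays, in females (red) and males (blue). The collagen classes lie between 0.06 and 0.34, while skeletal muscle markers lie at 5.35 and 6.15.

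The cells of the liver that make collagen were followed by their own markers. Of 12 stellate cell markers, all above background on every array, only desmin (Des) was past 2-fold, higher by a log2 ratio of 1.65 (females) and 4.55 (males), and it is also a skeletal muscle gene. The medians of the list were -0.23 and -0.10, with 3 of the 12 log2 ratios above 0 in females and 5 in males. Its summed signal was 49057 in control and 33856 in AAI females and 40363 in control and 38806 in AAI males. Ecm1, with log2 signals of 15.00, 14.33, 14.61 and 14.42 in that order, makes up most of each of these sums. Lrat, the vitamin A-storing enzyme of these cells, had -0.30 in females and -0.59 in males, and Reln had -0.20 and -0.98. Cygb, of the same list, went the other way in males, with 0.01 and 0.79. Smooth muscle actin (Acta2), a marker of myofibroblasts and smooth muscle, had 0.90 in females and 2.57 in males, and Synpo2, an actin-binding protein of smooth and striated muscle, had 2.44 and 4.56, the largest of this list. The median of the list of 7 was 0.37 and 0.98. Portal fibroblast markers had medians of 0.03 and 0.52, with Cd34 higher by 1.61 and Fbln2 lower by -1.03 in males. Liver endothelial markers had -0.34 and -0.21, cholangiocyte markers 0.08 and -0.09, kidney markers 0.37 and 0.15 and skin markers 0.28 and 0.13. The part of these cells in the collagen values was not tested.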

How the data were processed

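Liver RNA pooled from 5 mice per group was measured on 4 single-color arrays, 1 per group, with groups taken from the labels. The authors' scanner output, deposited by array and made by Feature Extraction 10.5.1.1, holds linear intensities (mean, background, background-subtracted and processed signals) with quality marks on an array annotated on mm9. The deposited series table also holds the authors' quantile-normalized intensities (an alternative here) beside raw ones.

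Computed here: log2 of the processed signal, without control spots, outlier spots and spots whose processed signal had been set to background (26 in control females and 92 in AAI males, none of a collagen), with repeated spots averaged. Quantile normalization over the arrays took the 56393 probes, of 56605, that had 4 values (Python 3.11.15, numpy 2.4.6). The highest mean log2 signal picked the probe of a gene. For a probe dim on 1 array, the bound used the lowest well-above-background signal of that array or the probe's own, whichever was higher. With 1 array per group, no test was run, and the number of arrays limits precision. The procedure was tested on simulated data. Normexp used limma 3.58.1 with an offset of 50.

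The collagen genes, their classes and the partner and marker lists, written from general knowledge, were chosen with earlier results of these data known. Values on all arrays are given for 14 collagens of liver matrix and for members past 2-fold, others by range or ratio, Col2a1 in addition after its values were seen. From the other lists, the named members are among the 3 with the largest ratios in females or males. Lrat, Cygb, Mmp3, Mmp16, Adipoq, Car3, cartilage and bone markers and markers near background were named besides, after their values were seen. Summed signals are sums of linear normalized intensities. Promoters are RefSeq sequences.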

Additional observations from a re-analysis of the deposited data

Results flagged for a closer look

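The log2 ratios of AAI over control mice lay on opposite sides of 0 in the sexes, each beyond the median SD between probes over all genes (0.25 and 0.24), for 3 collagen genes, and with 1 array per group the difference between the sexes was not tested. Col5a1 had -0.49 in females and 0.33 in males, from its only probe. Col5a3 had 0.34 in females and -1.69 in males, and its second probe had -0.37 and -0.06, so that its female ratio was under the SD of 0.50 between its own probes. Col6a5 had -0.63 in females and 0.37 in males, and a second probe, above background on 3 arrays, had 0.47 and 0.51, so that its female ratio was under the SD of 0.78 between its own probes. The doses differed between the sexes as well.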

How the results depend on the processing

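At a threshold of 1.5-fold in place of 2-fold, 1 collagen gene was higher and 2 were lower in females, 8 were higher and 2 lower in males, and 3 were higher and 1 lower in control females than males. Over all genes, the shares past 1.5-fold were 7.81% higher and 9.93% lower in females, 9.84% and 11% in males, and 7.91% and 9.99% between control females and males. At 3-fold, 0 collagens were higher in males, where 1.54% of all genes were. With 75th percentile scaling, 1 gene was higher in females (Col9a3, 1.02), and this scaling moved the share of lower genes among all genes past 2-fold in females from 69.6% to 54.1%. With the probes of a gene averaged, 1 was higher (Col8a1) and 0 were lower in males, and the fibrillar median in males was 0.02, with Col1a2 at -0.05. With the authors' normalized intensities 2 were lower in males, as without the filter on dim probes, Col4a3 joining Col5a3. Normexp left the counts as they were but not the genes: Col1a1 had 0.84 in males and Col1a2 passed 2-fold instead. Without the correction for trends across the array, Col1a2 (1.1) joined them in males, and the count stayed within 1.5 times. The other 125 recomputed counts and medians moved by less than the median SD between probes over all genes, or within 1.5 times for counts, but several medians shrank by more than 1.5 times. With normexp, the median of all collagens was 0.10 in females and 0.15 in males, of basement membrane collagens 0.09 and 0.07, of other collagens 0.13 and 0.12 and of fibrillar collagens in males 0.18. With probes averaged, all collagens had 0.09 and 0.16, other collagens in females 0.10, fibrillar collagens in females -0.03 and basement membrane collagens in males 0.02. Without the trend correction the fibrillar median in males was 0.54, and with 75th percentile scaling that in females was 0.18. The cause was not tested. No replicate could be left out. No paired analysis was possible because each comparison sets 1 array against 1. A fit of treatment with sex as a block, over doses that differ, was not run.

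Signals near background limit Col5a2, Col15a1 and, in females, Col9a3, whose ratios shrink with normexp. They leave only bounds for Col4a3 and Col9a3 in males. Spots repeated on an array measure spotting and scanning, not mice.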
